A study of Mus musculus with 8 samples.

Results

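The transcripts described here encode heterogeneous nuclear ribonucleoproteins (hnRNPs) and a poly(C)-binding protein, and their members were taken by gene name as every listed row of Hnrnpa2b1, Hnrnph1, Hnrnpl, Hnrnpm, Hnrnpr, Hnrnpu and Pcbp2. These 7 genes held 9 of 862 local splicing variations, with 27 of 6866 junctions, and 6 of 498 junction-usage events. The genes were chosen because they stood out in the same comparison, so their values are a description and carry no test beyond the authors' own. Stranded mRNA libraries had been made of cultured hepatocytes, which form most of the liver, from C57BL/6J mice with floxed Srsf3 alleles. For 4 libraries, Cre recombinase had been brought in by adeno-associated virus 48 h earlier (AAV-Cre, genotype Srsf3-KO), and for 4 others GFP had been (AAV-GFP, genotype Srsf3-flox). All 8 thus came from infected cells with floxed Srsf3. The sources used here do not give the ages of the mice, or whether libraries came from separate animals, so the authors' p-values may measure technical spread. Both deposited tables hold splicing values per group or per comparison, with no values per library and no RNA levels. The depth and the spread between libraries are therefore unknown, no SD is given, and the hepatocyte label could not be set against marker genes.

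The hnRNPs are RNA-binding proteins that coat nascent transcripts and take part in splicing, export and stability. They often act against SR proteins, the family of SRSF3, at exons. Many hnRNP and SR protein genes carry an alternative exon or intron whose splicing introduces an early stop codon and sends the mRNA to nonsense-mediated decay, and several control their own levels in this way. PCBP2 binds C-rich RNA through KH domains and acts in mRNA stability and translation.

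Of the alternative exons and introns on which the values below turn, most are shown first. They are given 5′ to 3′ on the strand of the gene, from GENCODE vM21 transcripts (mm10). Capitals mark words searched as SRSF3 motifs, namely CATC and the 8 words of 5 letters that have C at the second and the last place and A or T at each other place. Of these, ACATC and TCATC contain CATC, and the transcribed strand alone was searched. Stretches of Hnrnpr exons and of a 70-nt Hnrnpl exon follow with their genes. There, capitals mark codons or splice site bases and not these words.
Hnrnpa2b1, exon of 36 nt, chr6:51467391-51467426, minus strand: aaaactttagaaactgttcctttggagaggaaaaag
Hnrnpa2b1, exon of 120 nt, chr6:51464428-51464547, minus strand: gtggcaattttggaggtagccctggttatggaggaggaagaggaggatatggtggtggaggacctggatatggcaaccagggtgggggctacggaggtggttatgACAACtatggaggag
Hnrnph1, exon of 139 nt, chr11:50381459-50381597, plus strand: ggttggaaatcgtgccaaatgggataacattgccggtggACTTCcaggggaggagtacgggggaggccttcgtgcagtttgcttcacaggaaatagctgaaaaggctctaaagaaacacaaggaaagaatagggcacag
Pcbp2, exon of 93 nt, chr15:102485948-102486040, plus strand: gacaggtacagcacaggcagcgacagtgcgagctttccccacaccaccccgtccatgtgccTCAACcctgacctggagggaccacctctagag
Hnrnpl, intron of 111 nt, chr7:28818533-28818643, plus strand: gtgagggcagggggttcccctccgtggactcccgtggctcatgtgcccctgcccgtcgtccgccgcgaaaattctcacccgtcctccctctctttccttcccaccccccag
Hnrnpm, intron of 117 nt, chr17:33666530-33666646, minus strand: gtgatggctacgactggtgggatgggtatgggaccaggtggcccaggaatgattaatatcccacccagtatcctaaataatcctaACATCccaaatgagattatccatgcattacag

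The labels were first set against Srsf3, the floxed gene. A junction that leaves exon 1 and enters at 29040775 on chromosome 17, past the exons between, had a group PSI of 0.767 in AAV-Cre and 0.001 in AAV-GFP in the authors' deposited table. PSI, percent spliced in, is given on a scale of 0 to 1 as the share of 1 junction among those of its variation. A change is AAV-Cre minus AAV-GFP throughout, as the authors' tool estimated it.

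A local variation was called where its largest change had a size of at least 0.2, and all 9 variations of the 7 genes were. Of all 862 variations 95.2% were called, so this count says nothing particular about the members. Their largest changes had a median of 0.308, beside 0.329 over all 862 variations, and ran from 0.205 in Hnrnpm to 0.644 in Hnrnpu. Outside 3 windows of 100 kb dense in variations, which hold none of the members, the median over the remaining 439 variations was 0.304. By the tool's change, 8 of the 27 member junctions were higher and 9 lower in AAV-Cre by at least 0.2, and 8 had a change under 0.01. In these 8 the tool's change lay nearer to 0 than the difference of the group values, by which 4 of the 27 were under 0.01. Junctions of a variation are shares of the same whole, so rises and falls come together and nothing is read from their balance. A skipping junction of Hnrnph1 is counted under both of its variations. Among the 23 that are not retained introns, 18 are annotated in their own gene in vM21, 2 in another gene alone, and 3 in none. For a junction-usage event the call asked for a q-value up to 0.05 and a change of at least 0.1, which 4 of the 6 events of these genes met, beside 11.4% of all 498 events. The genes were chosen from this contrast, so nothing is read from the difference. The 4 called events belonged to Hnrnph1, Hnrnpl, Hnrnpr and Pcbp2. Hnrnpa2b1 and Hnrnpu were listed as local variations alone.

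**Figure D1:**
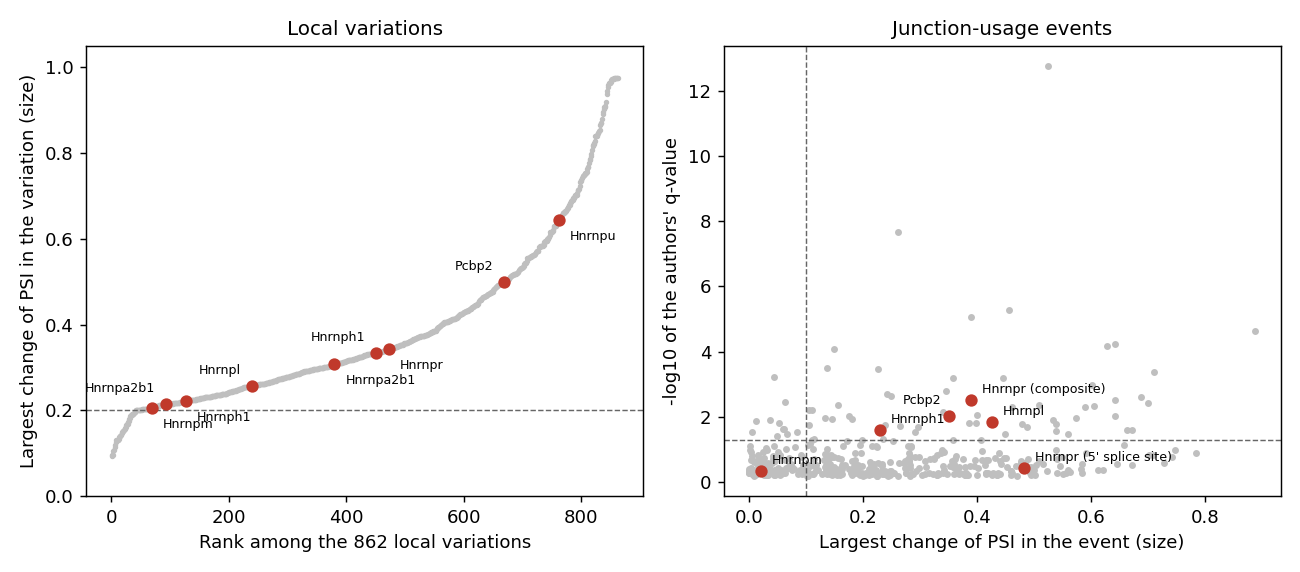
Left, largest change of PSI (size, 0 to 1) of each of the 862 local variations in rank order, with the 9 variations of the 7 genes in red and a dashed line at 0.2. Right, −log10 of the authors' q-value against the largest change for junction-usage events with a finite change, with the 6 member events in red and dashed lines at a q-value of 0.05 and a change of 0.1. The red points run from 0.205 to 0.644 on the left, and 4 of 6 lie past both lines on the right.

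In the table of local variations, the exons of Hnrnpa2b1 were used more in AAV-Cre, and those of Hnrnph1, Hnrnpr and Pcbp2 less. In the table of junction usage, the exons of Hnrnph1 and Pcbp2 fell, a 70-nt exon of Hnrnpl rose, and an exon of Hnrnpm did not pass. Hnrnpa2b1 encodes hnRNP A2 and B1, which differ by the exon of 36 nt, the second of 12 in transcript Hnrnpa2b1-203. The junction that joins this exon to the next had a PSI of 0.204 in AAV-Cre and 0.018 in AAV-GFP in the authors' deposited table, a change of 0.179. The junction that skips it had 0.766 in AAV-Cre and 0.981 in AAV-GFP in the authors' deposited table, a change of -0.214. The B1 exon was thus a minor form in both groups. The exon adds 12 codons in frame, for 353 with it against 341 without it in Hnrnpa2b1-203.

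The second variation of Hnrnpa2b1 lies near the other end of the coding sequence, at the eighth of 12 exons of Hnrnpa2b1-202. The junction into this exon of 120 nt had a PSI of 0.365 in AAV-Cre and 0.074 in AAV-GFP in the authors' deposited table, a change of 0.299. The junction that skips it had 0.604 in AAV-Cre and 0.902 in AAV-GFP in the authors' deposited table, a change of -0.308. The exon adds 40 codons in frame and lies where the gene encodes the glycine-rich region of the protein, which takes part in protein interactions. In Hnrnpa2b1-202 the stop codon lies 157 nt upstream of the last exon junction, both with the exon and without it. In Hnrnpa2b1-203 it lies 21 nt upstream, with the 36-nt exon and without it. The distance thus differs between transcripts and does not depend on either exon. In both variations of this gene the annotated coding exon was included more in AAV-Cre, while the retained intron beside it stayed low, at 0.030 and 0.032 in AAV-Cre against 0.001 and 0.025 in AAV-GFP in the authors' deposited table.

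Hnrnph1 encodes a protein that binds G-rich RNA and acts on splice site choice and polyadenylation. Its exon of 139 nt, the fifth of 14 in Hnrnph1-201, was entered from the upstream exon at a PSI of 0.650 in AAV-Cre and 0.996 in AAV-GFP in the authors' deposited table, a change of -0.333. The junction from the upstream exon past it, to 50382537 on chromosome 11, had 0.310 in AAV-Cre and 0.001 in AAV-GFP in the authors' deposited table, a change of 0.292. Seen from the downstream exon, the same skipping junction had 0.242 in AAV-Cre and 0.002 in AAV-GFP in the authors' deposited table. Skipping was thus near 0 in AAV-GFP from both sides, and these 2 variations share that junction. The other 3 junctions from the upstream exon had PSI values of 0.007 to 0.022 in AAV-Cre and 0.001 each in AAV-GFP in the authors' deposited table. Of these, the 2 that end furthest downstream are not annotated in vM21. By junction usage the exon fell by 0.230 (p = 0.000138, q = 0.0259) in the authors' deposited table. The exon length is no multiple of 3. Without it, the frame of Hnrnph1-201 closes after 184 codons, against 449 codons with it, and the new stop codon lies 656 nt upstream of the last exon junction. A stop codon far upstream of the last junction is the usual mark of a target of nonsense-mediated decay. Decay itself was not measured, and a decayed form is seen in PSI only as far as it survives.

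Hnrnpr encodes an hnRNP close in sequence to SYNCRIP that acts in mRNA transport and stability. Its exon of 166 nt (chr4:136314090-136314255, plus strand) is the second of 11 in Hnrnpr-202 and carries the annotated start codon. From that start codon, in capitals, the exon reads as follows.
Hnrnpr, first 30 coding bases, chr4:136314099-136314128, plus strand: ATGgctaatcaggtgaatggtaatgcggta
Of the junctions into the next exon, the one from the start codon exon had a PSI of 0.642 in AAV-Cre and 0.986 in AAV-GFP in the authors' deposited table, a change of -0.343. The one from exon 1, which skips the start codon, had 0.291 in AAV-Cre and 0.012 in AAV-GFP in the authors' deposited table, a change of 0.274. The last of them comes from an annotated exon that ends at 136311747 and had 0.068 in AAV-Cre and 0.003 in AAV-GFP in the authors' deposited table. For this junction the tool's change, 0.00661, was smaller than the difference of the group values. In the annotation, the transcript Hnrnpr-201 lacks the start codon exon and begins its reading frame at 136317111, with 531 codons. That is 101 codons fewer than the 632 codons of Hnrnpr-202. Whether such a protein was made was not measured.

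By junction usage Hnrnpr was listed under a composite event that shares with this variation the end of exon 1, the end of the start codon exon and the start of the next exon. The event also holds the starts of the start codon exon, of which 2 are annotated, and lacks the exon end at 136311747. Exon starts in this table lie up to 2 nt before the annotated ones. Its largest change had a size of 0.390 (p = 5.56e-06, q = 0.00308) in the authors' deposited table. Of its 5 values 3 were not finite, and the table does not say which junction a value belongs to, so no direction is given. A further event lies at the 5′ splice site of the next exon, where the site can move by 5 bases, shown in capitals after the exon they extend.
Hnrnpr, end of the exon with the longer form, chr4:136316450-136316484, plus strand: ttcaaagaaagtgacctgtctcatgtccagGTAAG
The site that adds GTAAG had a change of 0.483 and the shorter one a change of -0.483 in the authors' deposited table, and the event did not pass (p = 0.0135, q = 0.371). Both forms are annotated, and Hnrnpr-201, which lacks the start codon exon, has the longer one.

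In Pcbp2 the exon of 93 nt, the ninth of 15 in Pcbp2-201, was included less in AAV-Cre, with the largest change among the 5 exons that have a PSI in the table of local variations. The junction out of this exon had a PSI of 0.113 in AAV-Cre and 0.594 in AAV-GFP in the authors' deposited table, a change of -0.495. The junction that skips it had 0.885 in AAV-Cre and 0.399 in AAV-GFP in the authors' deposited table, a change of 0.499. A longer end of the exon, at 102486217, was barely used, at 0.003 in AAV-Cre and 0.007 in AAV-GFP in the authors' deposited table. The more used form thus differed between the groups, with skipping ahead in AAV-Cre and inclusion ahead in AAV-GFP. By junction usage the exon fell by 0.351 (p = 2.93e-05, q = 0.00965) in the authors' deposited table. It is in frame and holds 31 codons, with 331 codons in Pcbp2-201 without it and 362 with it. It is present in 14 vM21 transcripts of Pcbp2, in 12 of them within the coding sequence. Gm27406, a short RNA gene annotated on the same strand, covers this exon. In bulk RNA, a shift in part of the cells and a smaller shift in all of them cannot be told apart, here and for the other genes.

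**Figure D2:**
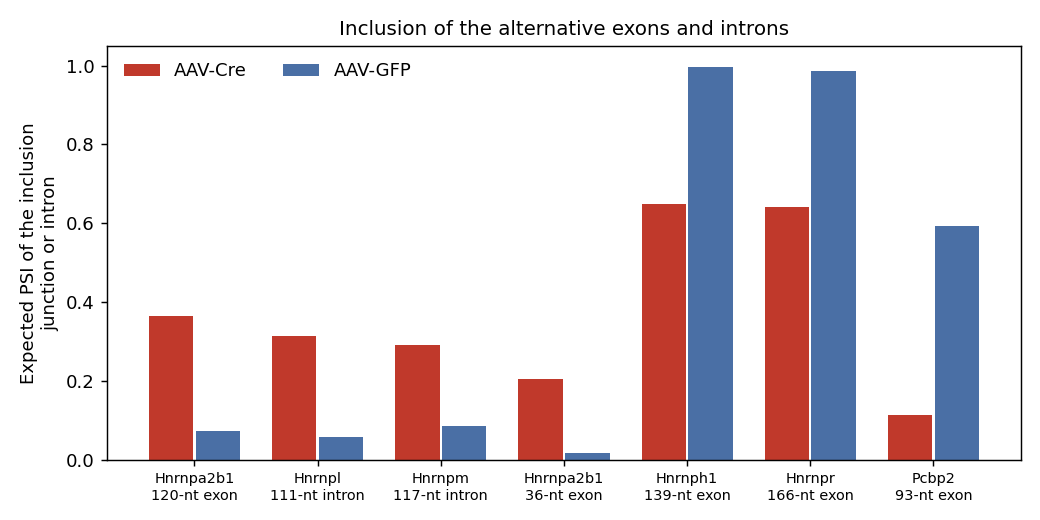
Expected PSI (0 to 1) of the inclusion junction, or of the retained intron, for 7 alternative parts in AAV-Cre (red) and AAV-GFP (blue), 1 group value per bar with no error available. The Hnrnpa2b1 exons and the Hnrnpl and Hnrnpm introns stand higher in AAV-Cre, and the exons of Hnrnph1, Hnrnpr and Pcbp2 lower.

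Hnrnpl, whose protein binds CA-rich RNA, had an exon used more in AAV-Cre that carries a stop codon. This exon of 70 nt (chr7:28817335-28817404, plus strand) is annotated in 2 vM21 transcripts, and in neither does the reading frame run through it. Up to its in-frame stop codon, in capitals, it reads as follows.
Hnrnpl, exon to the stop codon, chr7:28817335-28817393, plus strand: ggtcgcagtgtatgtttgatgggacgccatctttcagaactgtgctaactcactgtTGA
By junction usage inclusion of this exon rose by 0.426 (p = 5.6e-05, q = 0.0146) in the authors' deposited table, which gives no PSI of either group. Placed in Hnrnpl-201, the exon closes the frame after 309 codons, against 586 codons without it, and its stop codon lies 842 nt upstream of the last exon junction. Transcript Hnrnpl-213, which holds the exon, is annotated as a target of nonsense-mediated decay. No local variation that covers this exon was listed.

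The local variation of Hnrnpl concerns the intron after the exon to which the 70-nt exon is joined. This intron of 111 nt was retained at a PSI of 0.313 in AAV-Cre and 0.058 in AAV-GFP in the authors' deposited table, a change of 0.257. Splicing of it had 0.687 in AAV-Cre and 0.942 in AAV-GFP in the authors' deposited table. The intron is a multiple of 3 without an in-frame stop codon, adds 37 codons to the frame of Hnrnpl-201, and is coding throughout in Hnrnpl-209.

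Hnrnpm, whose protein binds GU-rich RNA, also had an intron retained more in AAV-Cre. The intron of 117 nt was retained at a PSI of 0.290 in AAV-Cre and 0.085 in AAV-GFP in the authors' deposited table, a change of 0.205, which lies just past the threshold of 0.2. It adds 39 codons in frame to Hnrnpm-201 and is coding throughout in 2 vM21 transcripts. Its form without the intron thus remained the more used one in both groups, at 0.710 in AAV-Cre and 0.915 in AAV-GFP in the authors' deposited table. By junction usage Hnrnpm was listed for another exon, of 54 nt (chr17:33652273-33652326), with a change of -0.0209 that did not pass (p = 0.0223, q = 0.467) in the authors' deposited table.

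**Figure D3:**
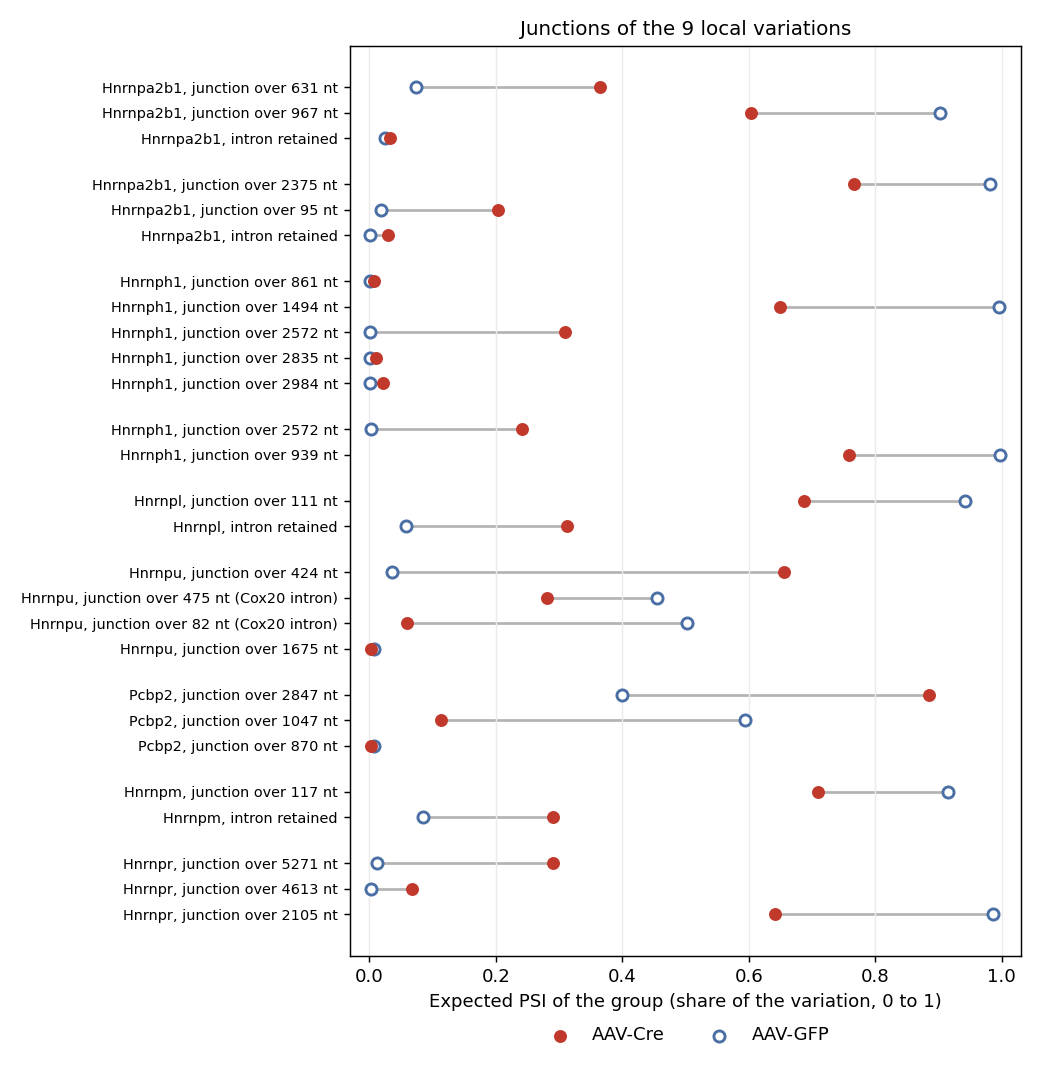
Expected PSI (0 to 1) of all 27 junctions and retained introns of the 9 variations, in AAV-Cre (red, filled) and AAV-GFP (blue, open), joined by a line and named by the span of the junction. In Hnrnpu 2 of the 4 junctions carry the name of Cox20, since they are its annotated introns.

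Hnrnpu encodes hnRNP U, or SAF-A, a nuclear protein that binds RNA and chromatin. It had the largest change of the 7 genes, but its variation mixes the junctions of 2 genes. The junction from 178323195 to 178323620 on chromosome 1 had a PSI of 0.656 in AAV-Cre and 0.035 in AAV-GFP in the authors' deposited table, a change of 0.644. It spans an intron of 424 nt in 3 vM21 transcripts of Hnrnpu, of which 2 are annotated as targets of nonsense-mediated decay. It begins 723 nt beyond the annotated end of the coding transcript Hnrnpu-201, downstream of the stop codon. Another 2 junctions of the variation are annotated introns of Cox20, a cytochrome c oxidase assembly factor on the opposite strand, and of no Hnrnpu transcript. The junction from 178321859 to 178321942 had 0.059 in AAV-Cre and 0.502 in AAV-GFP in the authors' deposited table, a change of -0.459. The junction from 178322005 to 178322481 had 0.281 in AAV-Cre and 0.455 in AAV-GFP in the authors' deposited table, a change of -0.0881. The last, unannotated junction, from 178321458 to 178323134, was near 0, at 0.002 in AAV-Cre and 0.007 in AAV-GFP in the authors' deposited table.

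The Cox20 introns together made up 0.340 of the variation in AAV-Cre and 0.957 in AAV-GFP. Among the other 2 junctions alone, the first held 0.997 in AAV-Cre and 0.833 in AAV-GFP, a difference of 0.164, which is under 0.2. Rounding of the deposited values allows 0.821 to 0.845 for the AAV-GFP share. These 2 junctions summed to 0.042 in AAV-GFP, so that share rests on a small part of the variation. The larger value of 0.644 therefore sets an Hnrnpu junction against splicing of Cox20. Under Cox20 itself, its introns were retained at 0.873 and 0.592 in AAV-Cre against 0.232 and 0.003 in AAV-GFP in the authors' deposited table. Those introns lie within the last exon of Hnrnpu-205, so retained Cox20 introns and RNA of Hnrnpu-205 cover the same bases. What each contributes was not tested. The libraries were stranded, and Hnrnpu and Cox20 lie on opposite strands. Both junctions of the Cox20 introns were listed with the same coordinates under Cox20 and under Hnrnpu. How strand was used to assign junctions to genes is not given in the sources used here.

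**Figure D4:**
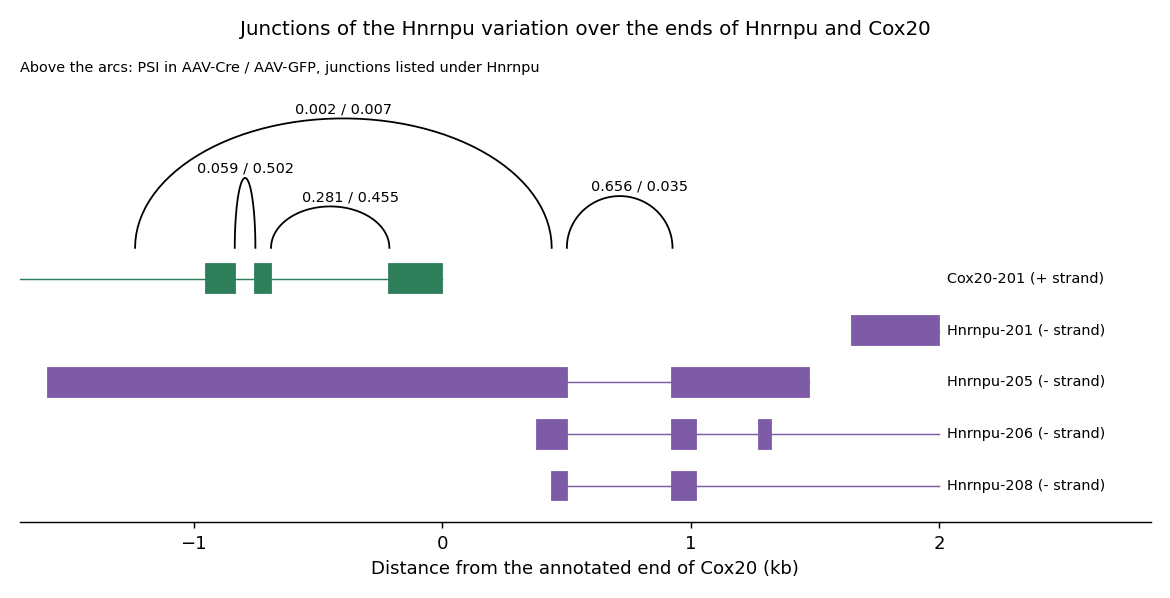
Annotated exons (boxes) of Cox20 (green) and Hnrnpu (purple) transcripts by distance in kb from the annotated end of Cox20, with the 4 junctions of the Hnrnpu variation as arcs, labelled with PSI in AAV-Cre and then AAV-GFP. The 0.059 / 0.502 and 0.281 / 0.455 arcs span Cox20 introns, and the 0.656 / 0.035 arc lies beyond the end of Cox20.

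The 9 alternative exons and introns described by sequence or length, from 36 to 166 nt, were compared in features that the choice of genes did not use. The lengths of 6 were multiples of 3, and these were the Hnrnpa2b1 exons, the Pcbp2 exon, the 54-nt exon of Hnrnpm and the introns of Hnrnpl and Hnrnpm. The other 3 bear on the reading frame in different ways, by a frameshift in Hnrnph1, a stop codon in Hnrnpl and the start codon in Hnrnpr. No share of multiples of 3 over other exons is given here, so nothing is read from the count of 6. The 5 bases at the 5′ splice site of Hnrnpr, no multiple of 3, are not among the 9 parts. At least 1 of the 8 SRSF3 words was found in 5 of the 9 parts, among them the exons of Hnrnph1, Hnrnpr and Pcbp2 that were used less in AAV-Cre, and also the 120-nt exon of Hnrnpa2b1 and the Hnrnpm intron that were used more. Among annotated internal exons of like length (within 10%), 23.7% to 77.4% held such a word, depending on the length. This share was 57.2% to 77.4% at the lengths of the 5 parts with a word, and 23.7% to 63.2% at the lengths of the others. The introns were set against exons too, and nothing is read from the count. CATC was found in 2 of the 9, the Hnrnpl exon and the Hnrnpm intron, beside 13.9% to 59.3% of internal exons of like length. A match is a description of the letters and not a binding site.

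Exons of 2 genes, Hnrnph1 and Pcbp2, could be matched between the tables by their splice sites, within 2 nt, and both had lower inclusion in AAV-Cre in each. Both tables rest on the same libraries, so this bears on orientation only. A list of 30 genes of the hnRNP and poly(C)-binding families and close relatives, such as Ptbp1, held 10 genes listed in either table and 20 in neither. The 10 include the 7 genes described here, which were listed by the way they were chosen. No share of listed genes over all genes is given, so nothing is read from the 10. Of the 30, 8 had a called local variation, which with 95.2% of all listed variations called says little more than that they were listed. They were these 7 and Ptbp1, a repressor of exons whose inclusion junction had a PSI of 0.102 in AAV-Cre and 0.463 in AAV-GFP in the authors' deposited table. None of the 3 junction-usage events of Ptbp1 passed, with q-values of 0.311 to 0.629 in the authors' deposited table. The other listed genes were Hnrnpab, with an exon at -0.309 (q = 0.228), and Hnrnph2, with an exon at 0.396 (q = 0.211), and neither passed in the authors' deposited table. Listing in these tables depends on a change or a p-value, so a gene that is not listed is not shown to be the same in both groups.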

How the data were processed

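Hepatocyte libraries (4 AAV-Cre, 4 AAV-GFP) were grouped by their titles. The build was mm10, and STAR and FastQC are named as tools, per the submitters' processing notes; the sources used here give no versions. In the first table, laid out as MAJIQ's VOILA writes it per the file headers, each junction has a PSI for either group, from 0 to 1, and an expected change. Over all junctions this change as deposited had r = -0.996 with AAV-Cre minus AAV-GFP PSI, so its sign was turned. The column headed as a probability was not used. The second table was deposited as JUM output at p below 0.05, per the file headers, with p-values, q-values and changes as AAV-Cre minus AAV-GFP. In it 63 of 498 events have no finite change.

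The genes and lists were chosen with earlier results of these data known. Of the 7 genes every listed variation and event was taken. Further genes named are Srsf3 as the check of the labels, Cox20 and Gm27406 as genes that overlap a variation, and Ptbp1, Hnrnpab and Hnrnph2 as listed genes of the family list. No model was fitted, since no value per library is held. Exons, introns and reading frames came from GENCODE vM21, on the same build, and frames were read by taking a part out of, or placing it in, 1 transcript, the lowest-numbered coding one with the needed exons or junction. Internal exons of 25 to 250 nt in coding transcripts gave the shares of words. Reading, calling and word counting were tested on simulated data. Computation used Python 3.11.15, numpy 2.4.6, pandas 2.3.3 and matplotlib 3.10.9.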

Additional observations from a re-analysis of the deposited data

How the results depend on the processing

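The count of called local variations in the 7 genes was 9. With 0.3 as the smallest size it fell to 5, and distinct junctions past 0.2 numbered 16. A size of 0.1 could only give 9 again, since all 9 already passed at 0.2. By the difference of group PSI values, an alternative added after seeing the data, the count was also 9. It was 7 with every junction annotated in its own gene and 7 without variations that overlap an exon of another gene, which leaves out those of Hnrnpu and Pcbp2, and 8 with the Cox20 junctions left out of Hnrnpu, also added after seeing the data. The share of all local variations called was 99.8% without 3 dense windows of 100 kb, which hold none of the member variations. The count of called junction-usage events was 4, and 5 at p of 0.05 or less, where the 5′ splice site of Hnrnpr entered. Events were deposited at p below 0.05, so that setting filtered by the size of 0.1 alone. The count was 4 under the other thresholds and counted as genes. The number of exons with the same sign in both tables was 2 under either way of matching. No paired analysis was possible because the tables hold no values per library, and for the same reason no library could be left out. Depth is unknown.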
